A study of Mus musculus with 15 samples.

Results

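The liver X receptors (LXR) and the sterol efflux genes they control were followed in mouse liver as 8 genes: the receptors Nr1h2 (LXR beta) and Nr1h3 (LXR alpha), the transporters Abca1, Abcg1, Abcg5 and Abcg8, the ubiquitin ligase Mylip and the acyltransferase Lpcat3. They were chosen by symbol, with all transcripts of a symbol summed, and are 8 of the 35540 genes in the table. All 8 passed the filter on low counts. Bulk RNA was sequenced from livers of mice kept for 8 weeks on a high-fat diet. Of the 15 libraries, 5 were Txnip knockout (KO), 5 carried the TXNIP C247S knock-in (C247S KI) and 5 were wild type (WT), and all 3 groups ate the same diet. TXNIP is the thioredoxin-interacting protein, and the C247S form lacks the cysteine that forms its covalent bond with thioredoxin. By its title the study asks whether that bond is required for insulin resistance of the liver under this diet. Strain, age, sex, and whether the knockout was confined to a tissue are not given in the sources used here. Nothing in the labels says that each library came from its own mouse, so the p-values below cover only differences among libraries, which may be technical. The sample titles give each library a different number, and the KO numbers lie in a range apart from those of C247S KI and WT, which overlap. What the numbers mark is not stated, so in the KO comparisons it cannot be told apart from genotype.

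LXR alpha and LXR beta are nuclear receptors that are switched on by oxysterols, the oxidised derivatives of cholesterol. They pair with a retinoid X receptor (RXR) and sit on DNA repeats separated by a spacer of fixed length (DR4 elements). When sterols are plentiful, the pair turns on genes that move cholesterol out of cells, into high-density lipoprotein (HDL) or bile, that limit its uptake, and that raise fatty acid synthesis in the liver. In hepatocytes LXR alpha is regarded as the main form, while LXR beta is made in most cell types.

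The start regions of the members whose results are given in most depth below are shown first, as RefSeq gives them for GRCm38.p6. A window of 250 bases before to 50 bases after the start was found for 7 of the 8 genes (9 windows in all, because Nr1h3 and Abcg8 have an additional start each), and Abcg1 was the gene with none. The Nr1h2 window is chr7:44553916-44554215 on the minus strand, and its capitals mark CCGGAAG, a core recognised by ETS factors, searched on both strands. The Abca1 window is chr4:53159846-53160145 on the minus strand, and its capitals mark the DR4-type match, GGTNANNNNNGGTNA on either strand. Abcg5 and Abcg8 start 110 bases apart on opposite strands of chromosome 17, so their windows share 209 bases, chr17:84682962-84683170, shown on the plus strand, which is the strand of Abcg8. There the capitals mark GATAA on either strand, a core recognised by GATA factors.
Nr1h2: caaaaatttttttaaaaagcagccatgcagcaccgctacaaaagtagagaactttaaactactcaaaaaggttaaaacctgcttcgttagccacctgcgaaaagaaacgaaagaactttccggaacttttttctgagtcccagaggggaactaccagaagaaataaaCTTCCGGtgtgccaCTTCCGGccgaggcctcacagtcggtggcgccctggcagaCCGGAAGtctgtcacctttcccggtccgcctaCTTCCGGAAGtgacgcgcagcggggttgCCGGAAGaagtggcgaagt
Abca1: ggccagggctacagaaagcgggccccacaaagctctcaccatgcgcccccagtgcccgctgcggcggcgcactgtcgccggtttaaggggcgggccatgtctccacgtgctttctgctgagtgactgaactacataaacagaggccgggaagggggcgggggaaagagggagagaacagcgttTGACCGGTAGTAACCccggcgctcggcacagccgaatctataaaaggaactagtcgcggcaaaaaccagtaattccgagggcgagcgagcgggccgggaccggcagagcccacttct
Abcg5 and Abcg8 shared: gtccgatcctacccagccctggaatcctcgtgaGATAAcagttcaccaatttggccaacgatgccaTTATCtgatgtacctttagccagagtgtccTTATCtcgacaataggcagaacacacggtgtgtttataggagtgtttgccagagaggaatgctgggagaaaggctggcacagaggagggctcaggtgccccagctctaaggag

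The DR4-type letters were present once among the members' windows, in Abca1, where the first base lies 67 bases before the start, and they overlapped none of the other motifs searched. Of all 32851 RefSeq windows of this length, 0.718% held the DR4-type letters. Nr1h2 held the ETS-type letters 6 times, of which the matches that begin at 4 and 7 bases past the start overlap each other in 1 palindrome, and 8.86% of all windows held it at least once. The shared Abcg5 and Abcg8 window held the GATA-type letters 3 times and the DR4-type letters 0 times, and 25.4% of all windows held the GATA-type letters. TATAAA, found in 13.6% of all windows, was present in the windows of Abca1, Mylip, Abcg5 and Abcg8, and CCAAT, found in 37.4%, in those of Lpcat3, Mylip, Abcg5 and Abcg8. These are matches of letters, and none of these data measured binding of a factor.

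Each library had between 18047577 and 23379940 estimated counts, and the count filter left 13916 genes for testing. On the first principal component (23.6% of the variance) KO libraries lay between -44.7 and -18.6 and the 10 others between -0.0 and 42.1. WT 1 (43.9), KO 5 (-38.7) and C247S KI 5 (-35.6) lay farthest out on the second component, and C247S KI 3 differed most from its own group by a chi-square test of counts. Txnip, the gene deleted by the label, ran from 70.9 to 123.5 CPM (counts-per-million, scaled by TMM factors) in KO libraries, from 99.9 to 280.2 CPM in C247S KI libraries and from 180.4 to 319.9 CPM in WT libraries. In the edgeR quasi-likelihood test Txnip was lower by a log2 fold change of -1.17 (SE 0.24, adjusted p = 0.00887) in KO against WT, so transcript was reduced but not absent, and the summed counts do not show which exons it holds. In KO against C247S KI Txnip was lower by -0.96 (SE 0.24, adjusted p = 0.0182), where the groups overlapped. That call was lost without KO 4 (adjusted p = 0.0576). The Txnip difference was -0.21 (SE 0.24, adjusted p = 0.782) in C247S KI against WT. In the tests of KO against WT, edgeR called 6.75% of all genes (2.56% higher and 4.19% lower). In KO against C247S KI it called 10.3% (4.41% higher and 5.85% lower), and in C247S KI against WT 0.0862%, or 12 genes, and 9.85% had an unadjusted p under 0.05.

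Across all libraries the members spanned a wide range of levels per transcript length, in CPM divided by transcript length in kilobases. Nr1h3 (mean 56.9), Lpcat3 (52.8), Abcg8 (36.5), Abcg5 (35.6) and Nr1h2 (21.6) were the higher ones, Abca1 was at 11.5, and Mylip (2.37) and Abcg1 (1.36) were the lowest. Neighbours in that order overlapped in range except Abca1 and Mylip. Nr1h3 was above Lpcat3 in 8 of 15 libraries and Abcg8 above Abcg5 in 9 of 15, so those neighbours could not be ordered. Nr1h2 stood below Abcg5 and above Abca1 in 15 of 15. Mylip and Abcg1 rested on 79 to 306 and 83 to 206 estimated counts per library, against 571 or more for every other member, so their values carry more counting error. Nr1h3 was above Nr1h2 per length in each group, at 64.7 ± 7.20 against 25.01 ± 1.87 in KO, 50.8 ± 15.2 against 20.3 ± 1.08 in C247S KI and 55.2 ± 11.9 against 19.4 ± 2.42 in WT (SD, n = 5 each).

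Of the receptors, Nr1h2 was higher in KO livers than in both other groups. Nr1h2 (chromosome 7, 44549616 to 44553951, minus strand, GRCm38) had 44.6, 41.7, 42.9, 47.2 and 50.3 CPM in KO libraries, 37.9, 33.2, 37.1, 35.35 and 34.3 CPM in C247S KI libraries, and 32.5, 36.3, 32.8, 33.0 and 39.5 CPM in WT libraries. All 5 KO libraries lay above all 10 others, while the C247S KI and WT libraries overlapped. Such a separation upward was shown by 4.51% of all genes in KO against WT and by 4.73% in KO against C247S KI. In KO against WT the log2 fold change was 0.38 (SE 0.09, edgeR adjusted p = 0.0163), or 1.30-fold, and in KO against C247S KI it was 0.35 (SE 0.09, adjusted p = 0.0189), or 1.28-fold. Between C247S KI and WT it was 0.03 (SE 0.09, adjusted p = 0.923). In bulk liver, fewer cells of a type and less RNA per cell cannot be told apart. The KO against WT call was lost without KO 5 (adjusted p = 0.0506), without WT 4 (0.0503) and with library totals in place of TMM factors (log2 0.34, adjusted p = 0.133, an alternative chosen after seeing the data), and the KO against C247S KI call without KO 4 (0.0513), without KO 5 (0.0589) and with library totals (log2 0.33, 0.0991).

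Nr1h2 counts were spread over several transcripts. Nr1h2-201 held 39.8% of them, Nr1h2-202 24.04% and Nr1h2-203 14.0%, and 15 of its 18 transcripts in the table had counts. The share of Nr1h2-201 was 38.7% ± 10.9 in KO, 40.0% ± 8.76 in C247S KI and 41.3% ± 12.2 in WT libraries (SD, n = 5 each). By exact two-sided permutation tests the share did not pass the threshold in any of the 3 comparisons (adjusted p = 0.873 in each, over 12 tests on 4 members). With protein-coding transcripts alone, Nr1h2 was higher by 0.41 in KO against WT (edgeR adjusted p = 0.0108) and by 0.42 in KO against C247S KI (adjusted p = 0.00526).

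Nr1h3, the LXR alpha gene (chromosome 2, 91184061 to 91202834, minus strand), did not pass the threshold in any comparison. It had 100.4, 127, 102, 123 and 119 CPM in KO libraries, 80.4, 84.7, 133, 90.4 and 60.4 CPM in C247S KI libraries, and 132.5, 87.8, 90.2, 95.5 and 79.8 CPM in WT libraries. In each of the C247S KI and WT groups 4 of 5 libraries were below every KO library, and 1, C247S KI 3 or WT 1, was above every KO library. The log2 difference was 0.23 (SE 0.18, edgeR adjusted p = 0.461) in KO against WT, 0.35 (SE 0.18, adjusted p = 0.214) in KO against C247S KI and -0.12 (SE 0.18, adjusted p = 0.845) in C247S KI against WT. Without C247S KI 3, Nr1h3 passed the threshold in KO against C247S KI (log2 0.53, adjusted p = 0.0281). WT 1, C247S KI 3 and C247S KI 5 were also left out together, because they stood apart in an earlier analysis of these data. Nr1h3 then passed in both KO comparisons (log2 0.37, adjusted p = 0.0212 against WT, and log2 0.42, adjusted p = 0.0194 against C247S KI). That set holds no KO library, although KO 5 lay farther out than C247S KI 5 on the second component. It includes the libraries that lay above every KO library, so these passes follow from the choice and are no support for a difference. Nr1h3 shares 34 exon bases with Gm13783 on the same strand, so reads from that stretch are uncertain.

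**Figure D1:**
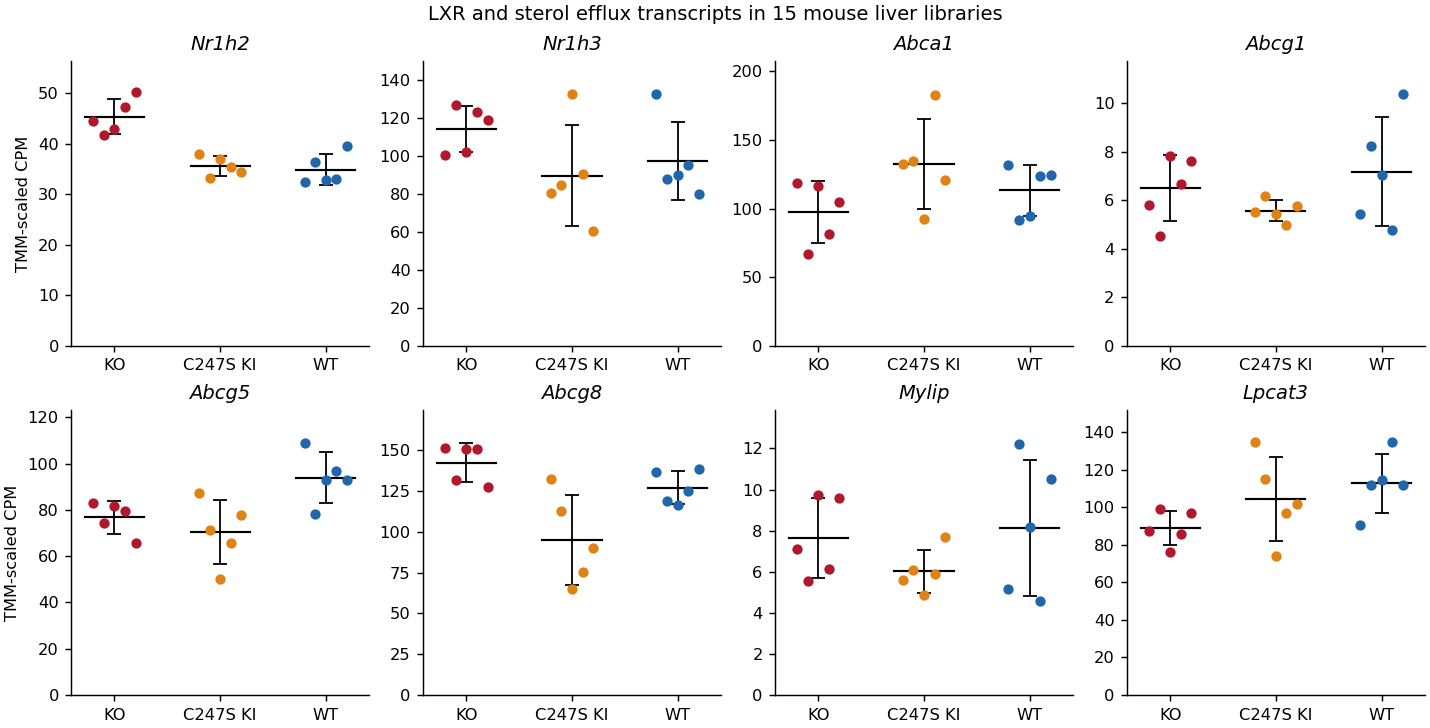
TMM-scaled CPM (vertical axis, from 0) of the 8 genes in KO, C247S KI and WT libraries (horizontal axis). Points are libraries, the long bar is the mean and the whiskers are 1 SD (n = 5 each). For Nr1h2 the 5 KO libraries sit between 41.7 and 50.3 CPM, above the 10 others.

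The transporters that load cholesterol onto HDL did not pass the threshold. Abca1 (chromosome 4, 53030787 to 53159895, minus strand) passes cholesterol and phospholipid to lipid-poor apolipoprotein A-I, the first step of HDL formation. It had 118.5, 66.9, 117, 81.3 and 105 CPM in KO libraries, 132, 135, 92.4, 183 and 121 CPM in C247S KI libraries, and 132, 92.0, 94.9, 124 and 124 CPM in WT libraries. The groups overlapped, with KO 2 the lowest and C247S KI 4 the highest of all 15. The log2 difference was -0.21 (SE 0.18, edgeR adjusted p = 0.525) in KO against WT, -0.44 (SE 0.18, adjusted p = 0.132) in KO against C247S KI and 0.23 (SE 0.18, adjusted p = 0.694) in C247S KI against WT. Abca1 passed in KO against C247S KI without C247S KI 3 (log2 -0.55, adjusted p = 0.0429) and without the 3 libraries that stand apart (log2 -0.62, adjusted p = 0.0494). C247S KI 3 was the lowest of its group, so leaving it out widened the difference.

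Abcg1 (chromosome 17, 31057675 to 31117988, plus strand), which passes cholesterol on to formed HDL and is known best from macrophages, was the lowest member. It had 5.80, 4.53, 7.85, 6.685 and 7.62 CPM in KO libraries, 5.53, 6.16, 5.42, 5.001 and 5.77 CPM in C247S KI libraries, and 5.43, 8.22, 7.05, 4.79 and 10.4 CPM in WT libraries. WT libraries ranged most widely, and the C247S KI libraries lay within the WT range. The log2 difference was -0.15 (SE 0.19, edgeR adjusted p = 0.700) in KO against WT, 0.22 (SE 0.20, adjusted p = 0.5) in KO against C247S KI and -0.37 (SE 0.20, adjusted p = 0.557) in C247S KI against WT.

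**Figure D2:**
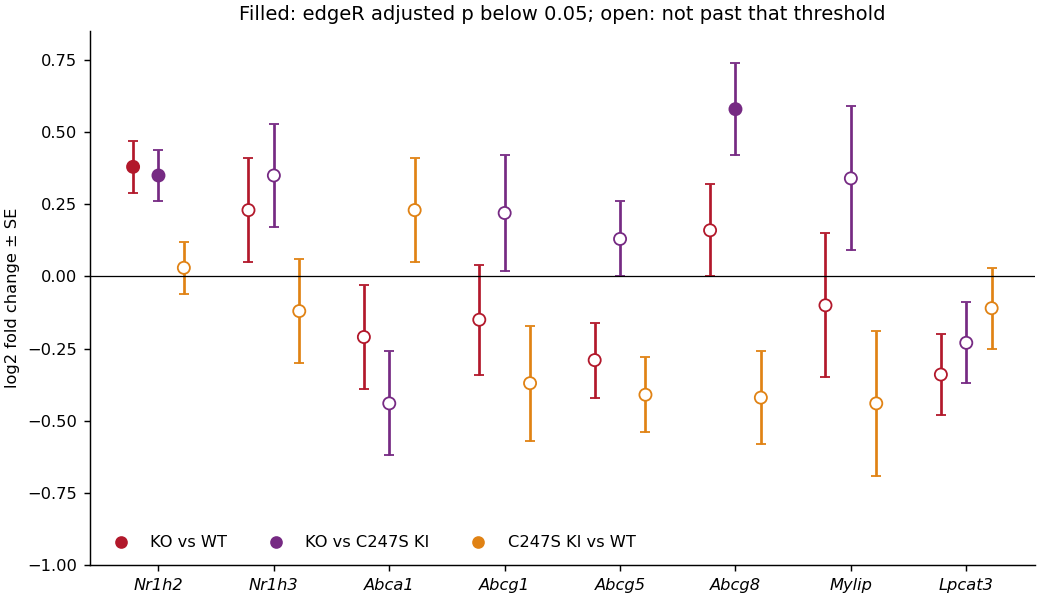
Log2 fold change with its SE (vertical axis) of each gene (horizontal axis) in the 3 comparisons, from the edgeR quasi-likelihood fit of all 15 libraries. Filled points passed adjusted p below 0.05: Nr1h2 at 0.38 and 0.35 and Abcg8 at 0.58.

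Mylip varied over the libraries together with Abcg1. Mylip (chromosome 13, 45389742 to 45412022, plus strand) is the ligase also called IDOL, which marks the LDL receptor for breakdown. It had 7.11, 5.55, 9.73, 6.115 and 9.605 CPM in KO libraries, 5.57, 6.07, 4.85, 5.90 and 7.69 CPM in C247S KI libraries, and 5.175, 12.2, 8.16, 4.56 and 10.5 CPM in WT libraries. WT 2 and WT 5 were the 2 highest libraries for both genes. No comparison passed the threshold, with log2 differences of -0.10 (SE 0.25, edgeR adjusted p = 0.847) in KO against WT, 0.34 (SE 0.25, adjusted p = 0.399) in KO against C247S KI and -0.44 (SE 0.25, adjusted p = 0.578) in C247S KI against WT. Over the 15 libraries Abcg1 and Mylip had a Pearson r of 0.87 (permutation p = 4e-05, adjusted p = 0.0011) and a Spearman rho of 0.91 (permutation p = 1e-05, the smallest that 100000 resamples can give, adjusted p = 0.00084). The r was 0.83 without the 2 libraries farthest from the median of Abcg1, and 0.86 after group means were taken out. The permutation tests were two-sided and adjusted over 84 relations, all pairs of members and each member with each of 7 marker sums, which were computed after the data had been seen.

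Both genes also followed the summed level of 8 sinusoidal endothelial markers. That sum was 196, 163, 240, 163 and 277 CPM in KO libraries, 191, 182, 192, 145 and 209 CPM in C247S KI libraries, and 165, 324.5, 220.1, 127 and 279 CPM in WT libraries. Mylip had r = 0.91 with it (permutation p = 1e-05, adjusted p = 0.00084 and rho 0.84 with permutation p = 0.00015, adjusted p = 0.0063), 0.86 without the 2 farthest libraries and 0.91 after group means were taken out. For Abcg1 r was 0.84 (permutation p = 3e-05, adjusted p = 0.0011 and rho 0.82 with permutation p = 0.00045, adjusted p = 0.0094), 0.83 without the 2 farthest libraries and 0.84 after group means. With the sum of 12 Kupffer cell and macrophage markers, Abcg1 had r = 0.74 (permutation p = 0.0014, adjusted p = 0.023 and rho 0.80 with permutation p = 0.00064, adjusted p = 0.011), 0.70 without the 2 farthest libraries and 0.69 after group means. Mylip had r = 0.68 with the same Kupffer cell sum (permutation p = 0.0053, adjusted p = 0.049 and rho 0.69 with permutation p = 0.0059, adjusted p = 0.055), 0.59 without the 2 farthest libraries. The part of these cells in the Abcg1 and Mylip levels was not tested.

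The called members also had relations with marker sums, and these shrank once group means were taken out. Nr1h2 had r = -0.74 with the hepatocyte marker sum (permutation p = 0.0016, adjusted p = 0.023 and rho -0.73 with permutation p = 0.0029, adjusted p = 0.035), -0.66 without the 2 farthest libraries and -0.17 after group means. With the lipid-associated macrophage sum Nr1h2 had r = -0.73 (permutation p = 0.0015, adjusted p = 0.023 and rho -0.66 with permutation p = 0.0086, adjusted p = 0.072), -0.79 without the 2 farthest libraries and -0.22 after group means. Abcg8 had r = -0.70 with the cholangiocyte sum (permutation p = 0.0045, adjusted p = 0.049 and rho -0.82 with permutation p = 0.00029, adjusted p = 0.0081), -0.77 without the 2 farthest libraries and -0.24 after group means. These relations over all 15 libraries thus lay largely in the differences between the groups, and the part of these cells in the Nr1h2 and Abcg8 results was not tested. Most of the hepatocyte sum is Alb, and Spp1 is in both the lipid-associated macrophage and the cholangiocyte sum (values below). The relations may thus rest largely on those genes, and no r without them is given.

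**Figure D3:**
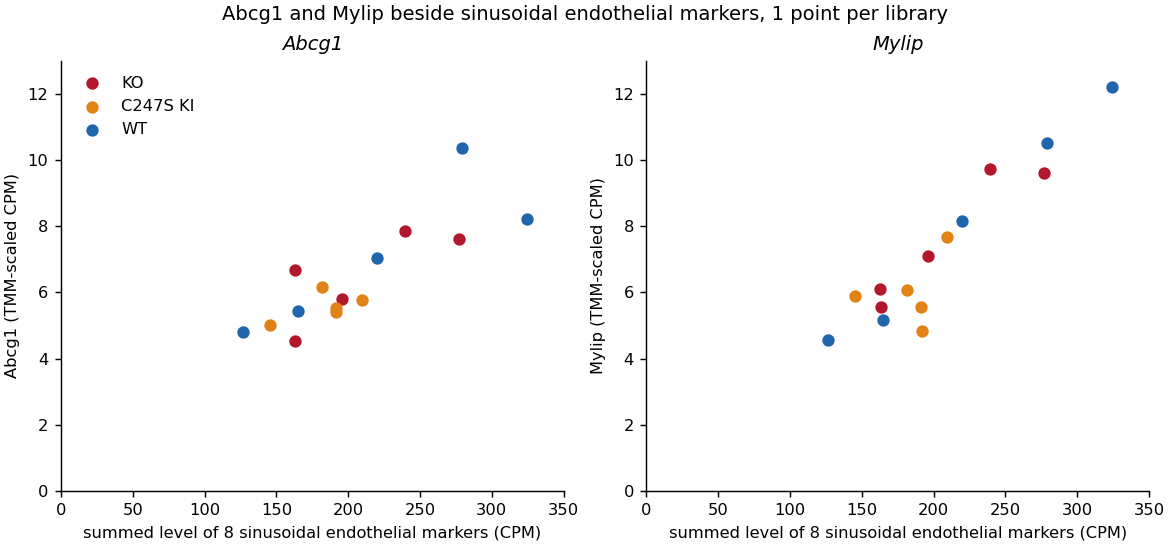
TMM-scaled CPM of Abcg1 (left) and Mylip (right) on the vertical axes against the summed CPM of 8 sinusoidal endothelial markers on the horizontal axes, with 1 point per library. The points climb together in both panels, from WT 4 at 127 CPM of markers to WT 2 at 324.5 CPM.

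Abcg5 and Abcg8 encode the subunits of a single heterodimeric pump that moves cholesterol and plant sterols into bile. Abcg8 (chromosome 17, 84676302 to 84700333, plus strand) had 151, 132, 151, 150.4 and 127 CPM in KO libraries, 132, 112.5, 64.9, 75.1 and 89.9 CPM in C247S KI libraries, and 136, 119, 117, 125 and 138 CPM in WT libraries. Only C247S KI 1 reached the KO range, whereas KO and WT overlapped. Abcg8 was higher in KO against C247S KI, with a log2 fold change of 0.58 (SE 0.16, edgeR adjusted p = 0.0261), or 1.5-fold. It was 0.16 (SE 0.16, adjusted p = 0.571) in KO against WT and -0.42 (SE 0.16, adjusted p = 0.419) in C247S KI against WT. The call in KO against C247S KI was lost without KO 3 (adjusted p = 0.0587), KO 4 (0.0599), C247S KI 4 (0.0622) or C247S KI 5 (0.0669), without the 3 libraries that stand apart (log2 0.41, 0.0917), with library totals (log2 0.55, 0.0822), in a fit of only those 2 groups (0.056), and with a clock gene index as covariate (log2 0.32, 0.748).

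Abcg5 (chromosome 17, 84658234 to 84683011, minus strand) did not pass the threshold. It had 83.1, 74.3, 81.9, 79.55 and 65.6 CPM in KO libraries, 87.1, 71.35, 50.2, 65.5 and 77.8 CPM in C247S KI libraries, and 109, 78.2, 92.8, 96.7 and 93.0 CPM in WT libraries. Of the WT libraries 4 were above every KO and C247S KI library, and WT 2 lay among them. The log2 difference was -0.29 (SE 0.13, edgeR adjusted p = 0.200) in KO against WT, -0.41 (SE 0.13, adjusted p = 0.336) in C247S KI against WT and 0.13 (SE 0.13, adjusted p = 0.571) in KO against C247S KI. Of the 8 members, Abcg5 had the lowest unadjusted p of C247S KI against WT, 0.00622. Over the 15 libraries Abcg5 and Abcg8 had r = 0.69 (permutation p = 0.0049, adjusted p = 0.049) and rho = 0.57 (permutation p = 0.03, adjusted p = 0.17). The r fell to 0.44 without the 2 libraries farthest from the median of Abcg5, so the pooled relation rested on those, and it was 0.82 after group means were taken out.

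The ratio of Abcg8 to Abcg5 separated KO from the other groups. Taken per transcript length, it was 1.22, 1.17, 1.22, 1.25 and 1.29 in KO libraries, 1.06, 1.09, 0.877, 0.795 and 0.749 in C247S KI libraries, and 0.908, 1.03, 0.848, 0.904 and 1.02 in WT libraries. All 5 KO libraries lay above all 10 others, and the ratio does not depend on any scaling between libraries. It averaged 1.23 ± 0.0462 in KO, 0.913 ± 0.153 in C247S KI and 0.943 ± 0.0802 in WT (SD, n = 5 each). The mean log2 ratio differed by 0.39 in KO against WT (0.35 to 0.42 when each library was left out), by 0.45 in KO against C247S KI (0.38 to 0.51) and by -0.06 in C247S KI against WT. Only the transcripts Abcg8-201 and Abcg5-201 gave 1.05 to 1.16 in KO, 0.63 to 0.877 in C247S KI and 0.614 to 0.854 in WT libraries, and estimated counts without length gave 1.77 to 1.94, 1.15 to 1.58 and 1.25 to 1.52. The ratio was chosen after the values were seen, so no test is given. Among 851 pairs of tested protein-coding genes that start within 1000 bases of each other on opposite strands, 5.05% had ratios that did not overlap between KO and WT, 5.52% between KO and C247S KI, and 1.06% between C247S KI and WT.

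The annotated exons of the pair share 82 bases on opposite strands. They lie in Abcg8-202, which held 0.587% of Abcg8 counts, and Abcg8-201 and Abcg8-203 share no base with Abcg5. Abcg8-201 made up 88.0% ± 3.48 of Abcg8 counts in KO, 80.2% ± 2.76 in C247S KI and 80.8% ± 5.79 in WT libraries (SD, n = 5 each). By exact two-sided permutation tests the share differed with p = 0.0159 (adjusted p = 0.19) in KO against C247S KI and p = 0.0397 (adjusted p = 0.238) in KO against WT, and neither passed after adjustment over the 12 tests, in which the smallest p that 5 against 5 allows is 0.00794. Abcg5-201 held 94.5% ± 1.97 of Abcg5 counts in KO, 91.6% ± 3.77 in C247S KI and 95.5% ± 2.68 in WT.

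**Figure D4:**
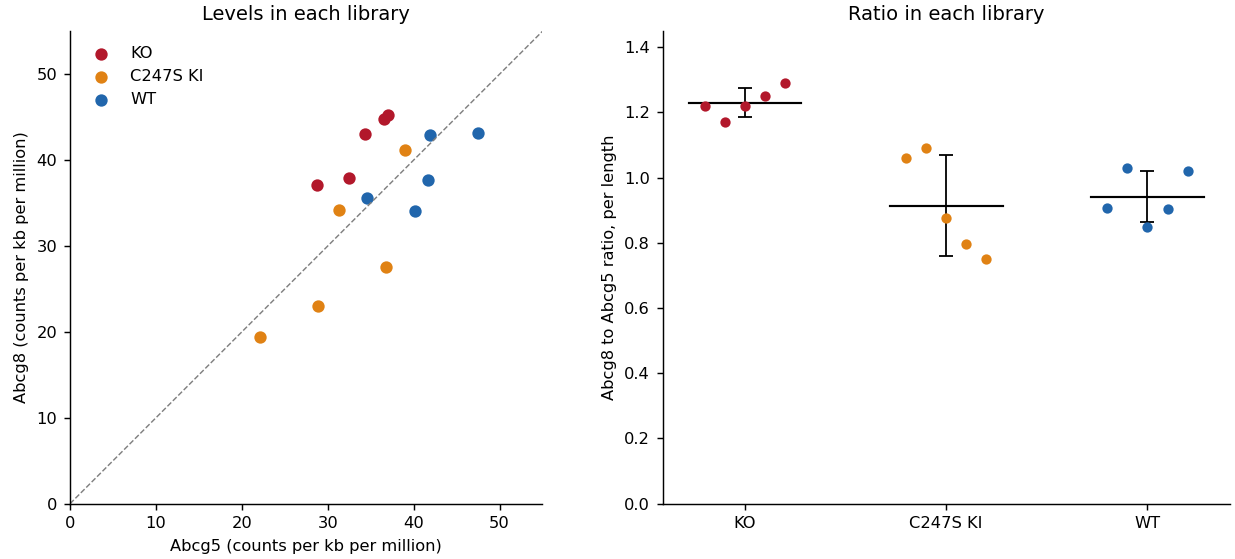
Left, levels of Abcg8 (vertical) against Abcg5 (horizontal) in CPM per kilobase of transcript, 1 point per library, with the dashed line at equal levels. Right, the ratio of Abcg8 to Abcg5 in each library (points), with the mean (bar) and 1 SD (whiskers, n = 5 each). The 5 KO libraries lie above the line, with ratios of 1.17 to 1.29.

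Lpcat3 (chromosome 6, 124663027 to 124704418, plus strand), an LXR target that adds polyunsaturated acyl chains to lysophosphatidylcholine in membranes, tended to lower values in KO without passing the threshold. It had 87.5, 98.9, 76.35, 85.7 and 96.9 CPM in KO libraries, 135, 115, 74.1, 96.9 and 102 CPM in C247S KI libraries, and 90.8, 112, 115, 135 and 112 CPM in WT libraries. WT 1 was the only WT library within the KO range. The log2 difference was -0.34 (SE 0.14, edgeR adjusted p = 0.159) in KO against WT, -0.23 (SE 0.14, adjusted p = 0.312) in KO against C247S KI and -0.11 (SE 0.14, adjusted p = 0.818) in C247S KI against WT. Without the 3 libraries that stand apart, which include WT 1, Lpcat3 was lower in KO against WT by -0.41 (adjusted p = 0.0311). Leaving out the only WT library within the KO range widened the difference, so this pass is no support for it. Lpcat3 shares 334 exon bases with Emg1 on the opposite strand. No source used here states that counting used strand, so reads there cannot be told apart.

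As a set, 1 of 8 members was called in KO against WT, 2 of 8 in KO against C247S KI, and 0 of 8 in C247S KI against WT, where 2 (Abcg5 and Abcg8) had an unadjusted p under 0.05. In C247S KI against WT the count was also 0 with DESeq2, with limma-voom and in every other setting run. Of all genes tested, edgeR called 6.75% in KO against WT, 10.3% in KO against C247S KI and 0.0862% in C247S KI against WT. In the last, 9.85% had an unadjusted p under 0.05. Counts of 1 or 2 among 8 genes are too small to set the members apart from those shares. The same shares stand beside the counts of each list below. The median log2 difference of the members was -0.12 in KO against WT beside -0.01 for all genes tested, 0.28 beside -0.03 in KO against C247S KI, and -0.24 beside 0.00 in C247S KI against WT. Any pair of these comparisons shares a group of libraries, so the medians are not independent of one another.

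The RXR partners and cofactors of LXR, a list of 17 genes of which all were tested, had 2 called higher and 0 lower in KO against WT. Rxrb, an RXR that pairs with LXR, had 51.6, 48.0, 48.55, 50.7 and 51.3 CPM in KO libraries, 33.2, 37.65, 37.5, 38.5 and 32.1 CPM in C247S KI libraries, and 33.5, 37.1, 38.2, 34.9 and 37.1 CPM in WT libraries. All KO libraries were above all others. Its log2 fold change was 0.47 (SE 0.08, edgeR adjusted p = 0.00347) in KO against WT, 0.48 (SE 0.08, adjusted p = 0.00165) in KO against C247S KI and -0.02 in C247S KI against WT. Against C247S KI, 1 of the list was higher and 3 were lower in KO, among them the cofactor Nrip1 (-0.71, adjusted p = 0.0107) and the coactivator Ncoa6 (-0.47, adjusted p = 0.0247). Ncoa6 lost its call without any of 7 single libraries, C247S KI 1, 4 or 5 or KO 2, 3, 4 or 5 (adjusted p up to 0.071) and with library totals (0.0813).

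Other known LXR targets moved down in KO where they were called. Of 27 tested genes, 0 were higher and 5 lower in KO against WT, and 0 were higher and 8 lower in KO against C247S KI, with medians of -0.32 and -0.25. Of all genes tested, 4.19% and 5.85% were called lower in those comparisons. The genes not called went both ways, and 9 and 12 of the 27 had a log2 value above 0. In KO against WT the 5 were Scd1, Elovl5 and Fasn, enzymes that make or modify fatty acids, the apolipoprotein gene Apoc2 (-0.77, edgeR adjusted p = 0.0227) and the small GTPase gene Arl4c (-0.68, adjusted p = 0.0275). Scd1, the stearoyl-CoA desaturase, had 318, 228, 245, 435 and 101 CPM in KO libraries, 15480, 3705, 2623, 6340 and 5347 CPM in C247S KI libraries, and 4399, 4613, 2801, 4034 and 2879 CPM in WT libraries. Every KO library lay below every other library. Scd1 was lower by a log2 fold change of -3.82 (SE 0.46, edgeR adjusted p = 0.000333) in KO against WT and -4.66 (SE 0.48, adjusted p = 5.91e-05) in KO against C247S KI. The elongase Elovl5 was lower by -2.02 in both (adjusted p = 0.00408 and 0.00247) and fatty acid synthase, Fasn, by -1.21 (adjusted p = 0.0151) in KO against WT and -1.68 (adjusted p = 0.00141) in KO against C247S KI. Between C247S KI and WT, 0 of 27 were called by edgeR, DESeq2 or limma-voom, 8 had an unadjusted edgeR p under 0.05, and the lowest p belonged to the elongase Elovl6 (log2 0.83, adjusted p = 0.317), which passed without C247S KI 3 (log2 1.04, adjusted p = 0.0459).

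Among 14 tested genes of oxysterol and sterol ligand metabolism, 1 was higher and 1 lower in KO against WT. Cyp7b1, a hydroxylase that clears oxysterols on the way to bile acids, had 204, 284, 383, 326 and 295 CPM in KO libraries, 43.5, 131, 292, 114 and 37.7 CPM in C247S KI libraries, and 108, 55.9, 44.1, 55.4 and 72.35 CPM in WT libraries. The KO libraries were all above the WT libraries, while C247S KI 3 lay within the KO range. Cyp7b1 was higher by 2.15 (SE 0.44, edgeR adjusted p = 0.00817) in KO against WT. Cyp39a1, another oxysterol hydroxylase, was lower by -1.09 (SE 0.30, adjusted p = 0.0392), with KO 1 above WT 2, and its call was lost without any 1 of 9 libraries (KO 2 to 5 and each WT; adjusted p 0.0537 to 0.109). Against C247S KI, 2 were higher and 2 lower in KO. Among them was Hsd3b7 of bile acid synthesis, higher by 0.55 (SE 0.14, edgeR adjusted p = 0.0179). Cyp39a1 was lower there too (-1.07, adjusted p = 0.0333), a call lost without C247S KI 1, C247S KI 4 or any of KO 2 to 5 (adjusted p up to 0.102) and in a fit of only those 2 groups (0.0649). Of the 14, 0 were called in C247S KI against WT by any of the 3 tools, and 1 had an unadjusted edgeR p under 0.05.

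The SREBP2 targets and MYLIP substrates, 14 tested genes that hold enzymes of cholesterol synthesis, lipoprotein receptors, SREBP2 and its regulators, and the ubiquitin-conjugating enzymes Ube2d1, Ube2d2a and Ube2d3, had 0 higher and 1 lower in KO against WT, with 1 of 14 log2 values above 0 and a median of -0.48. Insig2, which holds SREBP proteins in the endoplasmic reticulum, had 77.9, 56.3, 75.6, 72.2 and 71.6 CPM in KO libraries, 227, 195, 150.3, 242.5 and 248.5 CPM in C247S KI libraries, and 160, 215, 419, 301.5 and 219 CPM in WT libraries. The KO libraries were all below the others, and Insig2 was lower by -1.89 (SE 0.22, edgeR adjusted p = 0.000239) in KO against WT and by -1.59 (SE 0.22, adjusted p = 0.000297) in KO against C247S KI. Against C247S KI, 7 of 14 were lower and 0 higher in KO, among them Hmgcs1, an enzyme of the mevalonate pathway (-2.17, adjusted p = 0.000811). Squalene epoxidase, Sqle, had 8.54 ± 3.45 CPM in KO, 85.9 ± 35.3 CPM in C247S KI and 13.2 ± 6.48 CPM in WT (SD, n = 5 each). Sqle was lower by -3.33 in KO against C247S KI (adjusted p = 9.7e-05) and was the only gene of the list that edgeR called in C247S KI against WT, higher by 2.70 (adjusted p = 0.00507), while DESeq2 called 3. Without the 3 libraries that stand apart, that rise did not pass (log2 2.39, adjusted p = 0.077).

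Genes of HDL and reverse cholesterol transport had 0 higher and 2 lower of 15 tested in KO against WT. Lipa, the lysosomal lipase that frees cholesterol from its esters, was at 107 ± 9.93 CPM in KO, 172 ± 43.0 CPM in C247S KI and 173 ± 24.6 CPM in WT (SD, n = 5 each), a log2 fold change of -0.69 (SE 0.15, edgeR adjusted p = 0.0135) in KO against WT and -0.68 (SE 0.15, adjusted p = 0.0105) in KO against C247S KI. Gramd1b, which carries cholesterol from the plasma membrane to the endoplasmic reticulum, was lower by -0.77 (adjusted p = 0.0257), a call lost without KO 1, KO 2, KO 5 or WT 3 (adjusted p up to 0.0639), with library totals (0.0691) and with no count filter (0.0525). Against C247S KI, 1 was higher and 3 lower in KO. Hepatic lipase, Lipc, was higher by 0.96 (SE 0.16, adjusted p = 0.0013), and the phospholipid transfer protein Pltp was lower by -1.60 (SE 0.35, adjusted p = 0.00835). Between C247S KI and WT 0 of 15 were called by any of the 3 tools, 2 had an unadjusted edgeR p under 0.05, and Pltp had the lowest (log2 1.04, adjusted p = 0.349).

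Among other ABCA and ABCG transporters and a list of phospholipid enzymes, few genes were called. Of 10 other ABCA and ABCG transporters tested, 0 were higher and 1 lower in KO against WT. That gene, Abca5, was at 3.81 ± 1.09 CPM in KO, 6.66 ± 1.67 CPM in C247S KI and 6.64 ± 0.789 CPM in WT (SD, n = 5 each; log2 -0.80, edgeR adjusted p = 0.029 in KO against WT), and it lost the call without KO 2, KO 4, KO 5, WT 1 or WT 4 (adjusted p up to 0.0835) and with library totals (0.0799). Against C247S KI, Abca5 was lower (-0.81, adjusted p = 0.0202) and Abca2 higher (0.45, adjusted p = 0.0388). Leaving out C247S KI 1 or 5 or KO 2, 4 or 5 ended the Abca5 call (adjusted p up to 0.0635), and leaving out any of 8 libraries ended that of Abca2 (adjusted p up to 0.111), as did library totals (0.0714), protein-coding transcripts alone (0.0503) and leaving out the 3 libraries that stand apart (0.12). The list of phospholipid acyltransferases had 11 tested genes, among them the phospholipases Pla2g6 and Pla2g12b. Of the 11, 1 was lower and 0 higher in both KO comparisons. That gene was the glycerol-3-phosphate acyltransferase Gpam (log2 -0.75, adjusted p = 0.00855 against WT, and -0.83, adjusted p = 0.00293 against C247S KI). Neither list had a gene called by the 3 tools in C247S KI against WT, with 0 and 1 at an unadjusted edgeR p under 0.05, and there Abca7 (0.30, adjusted p = 0.553) and Lpcat2 (-0.51, adjusted p = 0.5) had the lowest p.

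**Figure D5:**
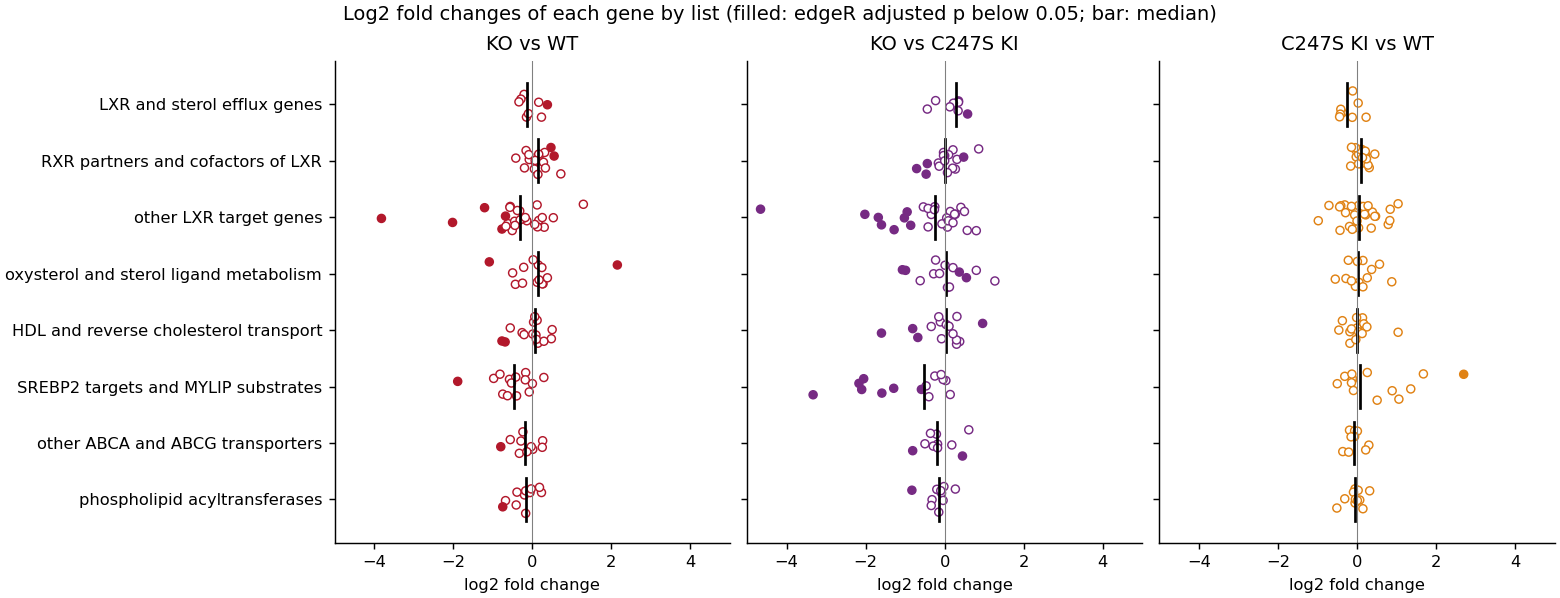
Log2 fold change (horizontal axis) of each tested gene in the 8 members and 7 pathway lists (rows) in KO against WT, KO against C247S KI and C247S KI against WT. Filled points passed edgeR adjusted p below 0.05 and black bars are list medians. Scd1, at -3.82 and -4.66, is the farthest point to the left in the KO panels.

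Some markers of other cells and of the circadian clock differed between the groups, and their part in the results was not tested. Of 12 Kupffer cell and macrophage markers, 0 were called by edgeR, DESeq2 or limma-voom in any comparison (2, 0 and 7 had an unadjusted edgeR p under 0.05 in KO against WT, KO against C247S KI and C247S KI against WT), with sums of 203 to 409 CPM in KO, 198 to 342 CPM in C247S KI and 314 to 517 CPM in WT. Of those 12, 0 had a log2 value above 0 in C247S KI against WT (median -0.65). The number was 1 in KO against WT (median -0.25) and 11 in KO against C247S KI (median 0.47). Of 7 lipid-associated macrophage markers, 4 were lower in KO against WT and 3 in KO against C247S KI (sums 31.7 to 43.3 CPM in KO, 55.1 to 136 CPM in C247S KI and 51.9 to 73.9 CPM in WT). Sinusoidal endothelial markers had 2 of 8 lower in KO against WT (Lyve1 and Pecam1) and 1 of 8 in KO against C247S KI (Lyve1). Of these 8, 4 had a log2 value above 0 in KO against WT (median -0.02) and 6 in KO against C247S KI (median 0.39). Their sums overlapped, at 163 to 277, 145 to 209 and 127 to 324 CPM in KO, C247S KI and WT. In KO against WT, stellate cell markers had 1 of 8 lower (sums 173 to 406, 310 to 488 and 421 to 503 CPM in KO, C247S KI and WT) and lymphocyte markers 1 of 5 tested of 8. Cholangiocyte markers summed to 25.7 to 38.7 CPM in KO, 46.7 to 123 CPM in C247S KI and 35.3 to 53.8 CPM in WT, with 2 of 6 lower in KO against C247S KI. In C247S KI against WT 0 of these 6 were called and 3 had an unadjusted edgeR p under 0.05. There 6 had a log2 value above 0 (median 0.74), beside 3 in KO against WT (median -0.08) and 0 in KO against C247S KI (median -0.77). Spp1 stands in both the lipid-associated macrophage and the cholangiocyte list, is called in both in KO against C247S KI, and had 98.39 CPM in C247S KI 5. Without Spp1 the macrophage sums were 14.1 to 19.5 CPM in KO, 22.2 to 37.9 CPM in C247S KI and 29.5 to 36.7 CPM in WT, and the cholangiocyte sums 7.88 to 17.3 CPM in KO, 11.1 to 31.2 CPM in C247S KI and 12.02 to 14.4 CPM in WT. Of the tested markers 0 were at a count of 0 in any library, and Cd3e, Cd3g and Cd8a did not pass the count filter. The 8 hepatocyte markers were the highest genes of these lists (45930 to 62610 CPM in sum in KO, 63410 to 107100 CPM in C247S KI and 79730 to 93540 CPM in WT), with Alb lower in both KO comparisons. Most of that sum is Alb, and the 7 other hepatocyte markers summed to 17312 to 18300 CPM in KO, 12650 to 21691 CPM in C247S KI and 16264 to 19062 CPM in WT, which overlap. An index of clock genes was 2.53 to 3.46 in KO, 0.20 to 1.82 in C247S KI and 1.42 to 2.53 in WT libraries. With that index as a covariate 0 members were called. Nr1h2 lost its calls, with log2 0.38 (edgeR adjusted p = 0.188) in KO against WT and 0.35 (adjusted p = 0.49) in KO against C247S KI, and Abcg8 in KO against C247S KI was at 0.32 (adjusted p = 0.748), against 0.58 without the covariate. Txnip lost its calls with the covariate as well, at log2 -1.18 (edgeR adjusted p = 0.148) in KO against WT and -0.98 (adjusted p = 0.484) in KO against C247S KI. Since the index nearly followed the KO group, clock phase and genotype cannot be told apart. Of the pathway genes named above other than Apoc2 and Arl4c, for which it was not computed, Rxrb, Scd1, Fasn and Insig2 kept their call in KO against WT with that covariate, and Elovl5, Cyp7b1, Cyp39a1, Lipa, Gramd1b, Abca5 and Gpam did not. In KO against C247S KI, Scd1, Fasn, Sqle and Hmgcs1 kept it, and the other pathway genes named for that comparison did not.

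The genes whose levels followed those of the called members most closely over the 15 libraries, among 12294 genes with a mean of at least 1 CPM, were taken from log2 CPM. For Nr1h2 they were Extl3 (Pearson r = 0.93, and 0.83 after group means were taken out), Aifm3 (0.91 and 0.54) and L3mbtl2 (0.90 and 0.52). For Abcg8 they were Pbld2 (0.86 and 0.68), Ldlrad4 (0.85 and 0.69) and Map2k6 (0.84 and 0.65). These are the extremes of many genes in libraries that share depth and group, given as a description.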

How the data were processed

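Mouse liver RNA was sequenced in 15 libraries, and the authors deposited estimated counts per Ensembl transcript, whole numbers with no normalization. Per the submitters' processing notes, reads were handled with Trimmomatic 0.39, kallisto 0.50.1, DESeq2 and the mm10 build, and the labels do not name the set of transcripts. Of 115911 transcripts 114331 (98.64%) were matched to GENCODE M21 (GRCm38) and summed per gene symbol, and the unmatched 0.366 to 0.459% of counts stayed out. Groups come from the labels, with 5 libraries each. The copy check, on pairs within each group, found no library deposited more than once in its group (chi-square per degree of freedom 22.8 to 369). Pairs from different groups were not compared in that check. Depth was 18047577 to 23379940 counts a library, so counting error matters chiefly for Abcg1 and Mylip.

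Tests used edgeR 4.0.16 under R 4.3.3 (library scaling by TMM, filterByExpr with a minimum count of 10 and minimum total of 15, quasi-likelihood test of all 15 libraries in 1 fit, Benjamini-Hochberg adjustment over 13916 genes, threshold 0.05). Standard errors are the absolute log2 difference over the root of its F statistic. CPM are counts divided by TMM-scaled library size, and a prior count of 2 was added for log2 values. Alternatives were DESeq2 1.42.0, limma-voom 3.58.1, other scaling and filters, a replicate block, a clock covariate and libraries left out. Named genes were all members and, for each list and comparison, up to 3 called genes with the lowest p, or the lowest p where none was called. Some genes that this rule names are not reported here. The members and lists were chosen with earlier results of these data known. The procedure was tested on simulated data. Sequences are from RefSeq GRCm38.p6.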

Additional observations from a re-analysis of the deposited data

How the results depend on the processing

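Depth limited Abcg1 and Mylip most. Of the members' values in other settings, 204 in KO against WT, 199 in KO against C247S KI and 213 in C247S KI against WT kept direction and side of the threshold. The causes of the changes below were not tested. Genes called in KO against WT numbered 939 and became 1506 with DESeq2, 1542 without WT 1, C247S KI 3 and C247S KI 5 together, 100 with the clock covariate, 514 with library totals and 521 (without KO 2) to 1259 (without C247S KI 3) with 1 library out. Called members there were 1, and became 3 without those 3 libraries, 0 with the clock covariate, 0 with library totals and 0 to 1 with 1 library out. In KO against C247S KI 1427 genes became 53 with the clock covariate and 784 (without KO 2) to 2272 (without C247S KI 3) with 1 library out, and 2 called members became 1 with only those groups fitted, 0 with the clock covariate, 0 with library totals and 0 (without KO 4) to 4 (without C247S KI 3) with 1 library out. In C247S KI against WT 12 genes became 67 with DESeq2, 20 with no count filter, 6 with only those groups, 6 with the replicate block, 27 with the clock covariate, 7 with library totals and 4 to 24 with 1 library out. The replicate numbers did not pair the libraries (correlations of same-numbered deviations -0.16 to 0.42), and the block gave 1046 genes in KO against WT and 1594 in KO against C247S KI, where of the named genes Abca2 was no longer called (edgeR adjusted p = 0.0614). With the clock covariate Abca1 had log2 0.08 and Abcg8 -0.01 in KO against WT, and Abca1 had 0.02 and Cyp39a1 0.08 in KO against C247S KI. In KO against WT, Mylip was 0.01 without KO 2, 0.11 without WT 2, 0.02 without WT 5 and -0.24 without WT 4, and Abcg1 ran from -0.25 without WT 4 to 0.03 without WT 5. In C247S KI against WT, Nr1h2 was -0.02 with protein-coding transcripts only, Nr1h3 ran from -0.29 to 0.03 and Lpcat3 from -0.21 to 0.00 with 1 library out. The log2 difference of the Abcg8 to Abcg5 ratio by main transcripts was 0.59 in KO against WT and 0.02 in C247S KI against WT, where the ratio by all transcripts (-0.06) ran from -0.13 to 0.01 with 1 library out. With 1 library out, the share of Nr1h2-201 differed by -7.7 to 0.914 percentage points in KO against WT, -5.17 to 2.22 in KO against C247S KI and -6.39 to 1.98 in C247S KI against WT (0.695 among protein-coding transcripts only). In C247S KI against WT the main Nr1h3 transcript ran from -1.99 to 0.714 points and Abcg8-201 from -2.5 to 1.19 points.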
